A study of Homo sapiens with 12 samples.

Results

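The name BTB zinc finger genes is used here for the human genes whose platform symbol is ZBTB followed by digits, with at most 1 trailing letter. Genes of the family that carry other names, such as BCL6 and HIC2, are not counted among them and are given apart below. The array carried 99 probe sets, the groups of short probes that each report 1 transcript, for 41 such genes. A gene was tested when a probe set of it reached a signal over 136.5, the overall median of the table, on 3 or more of the 12 arrays, and it was represented by its probe set of highest mean. Of the 41 genes, 35 were tested, among 14221 genes in all. None of their probe sets was annotated to a second gene, but the symbols come from an old platform annotation, and zinc finger genes resemble each other closely enough that a probe may also detect a relative.

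The study treated 3 established human soft tissue sarcoma cell lines with taurolidine, TRAIL or both, to learn how the agents act together. The lines are labelled rhabdomyosarcoma (A-204), leiomyosarcoma (SK-LMS-1) and epithelioid sarcoma (VA-ES-BJ), and no label names an engineered allele. Taurolidine, abbreviated TRD in the labels, is a taurine derivative used as an antimicrobial agent that also kills tumour cells, and TRAIL is a ligand of the tumour necrosis factor family that signals through death receptors. In each line the untreated group received neither agent, the TRAIL group received TRAIL at 50 ng/ml, the taurolidine group received taurolidine at 250 µmol/l, and the combination group received both at these doses. Treated cells were exposed for 6 h, and all cells grew in the same serum-containing medium. Each of the 4 groups thus held 3 arrays, 1 from each line, and no line had a repeated treatment. Nothing in the labels states that the wells of a line were separate cultures, so p-values measure the spread between these arrays.

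Proteins of this family join a BTB domain, through which they pair with each other and recruit corepressors, to zinc fingers that read DNA. Most are known as transcriptional repressors that act through histone deacetylase complexes, and some switch on their targets instead. They are best known from blood cell development, where single members fix a lineage, and from cancer, where members restrain or promote the p53 and MYC programmes.

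Values were MAS5 signals, a linear brightness scaled by the authors so that the trimmed mean of each array lay between 1000.1 and 1000.2. The median signal of the arrays lay between 123 and 155. Changes are given as differences of log2(signal + 11.8), where the constant is the 10th percentile of the table, which understates the change of dim genes. A gene was called when its limma adjusted p, Benjamini-Hochberg over all 14221 genes, was under 0.05. The scaling fixes the mean brightness of each array, so a change in total mRNA per cell cannot be seen, and in bulk RNA fewer cells of a kind and less RNA per cell cannot be told apart. Before treatment, VA-ES-BJ was the line bright for KRT19, a keratin of epithelioid cells, at 16189 against 9.33 and 27.9 in A-204 and SK-LMS-1. KRT8 was also brightest there, at 16153 against 2771 and 339, and KRT18 at 18904 against 9211 and 11164. SMARCB1, listed as low in epithelioid sarcoma, was at 152 against 1235 and 3530. VIM, listed as a marker of that tumour, was lowest in VA-ES-BJ instead, at 36708 against 48384 and 38778. Of the listed smooth muscle genes, TAGLN was brightest in SK-LMS-1, at 9763 against 271 and 4245 in A-204 and VA-ES-BJ. So were CNN1, at 661 against 17.7 and 162, and CALD1, at 29742 against 13589 and 18407. MYH11 was also brightest there but near the table median, at 137 against 56.5 and 71.5. ACTA2 did not set SK-LMS-1 apart, at 1686 against 1667 and 4980. The skeletal muscle regulators MYOD1, MYOG and MYF5 were at 28.6, 10.2 and 5.32 in untreated A-204, all far under the table median, and DES was at 132, near that median. No detection calls were used, so these are levels, and the labelled tumour type of A-204 was not borne out by its muscle markers. Summed signals of 3 leukocyte markers lay between 161 and 302 over the 3 untreated lines, those of 3 endothelial markers between 287 and 548, and those of 2 erythroid markers between 207 and 275. Signals of 27 probe sets for poly-A control RNAs were higher with taurolidine, by 0.73, 0.64 and 0.55 on the log2 scale in A-204, SK-LMS-1 and VA-ES-BJ without TRAIL, and by 0.72, 0.41 and 0.52 on top of TRAIL. Results with the arrays scaled to these controls are given below, and why their signals were higher was not tested.

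With taurolidine alone, 22 of the 35 BTB zinc finger genes fell and 0 rose. Among all genes tested 11.5% were called lower and 7.71% were called higher in that comparison. The median change of the 35 genes was -0.68 against -0.00 for all genes tested, and 34 of the 35 had a value below 0, against 50.3% of all genes. By line, the median was -0.84, -0.48 and -0.82 for A-204, SK-LMS-1 and VA-ES-BJ. A fall of at least 2-fold was called for 13 members, and for 4.71% of all genes. ZBTB5, ZBTB34 and ZBTB3 led these falls, while ZBTB38, ZBTB4 and ZBTB49 had the smallest called ones, between -0.48 and -0.41. In 24 members both arrays with taurolidine were under both arrays without it in each of the 3 lines, which held for 15.1% of all genes. In 11 members all 6 arrays with taurolidine lay under all 6 arrays without it, against 4.89% of all genes. The count rests on the 12-array fit with the cell line as a term. Without the line term 2 members and 0.999% of all genes were called lower, and in a fit of the compared arrays alone 0 members and 0% of genes were, with 24 members at an unadjusted limma p under 0.05. Without A-204, SK-LMS-1 or VA-ES-BJ the count was 7, 9 or 5, against 2.36%, 2.76% or 2.19% of all genes. Scaled to the poly-A controls it was 33, but 56.0% of all genes were then called lower.

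**Figure D1:**
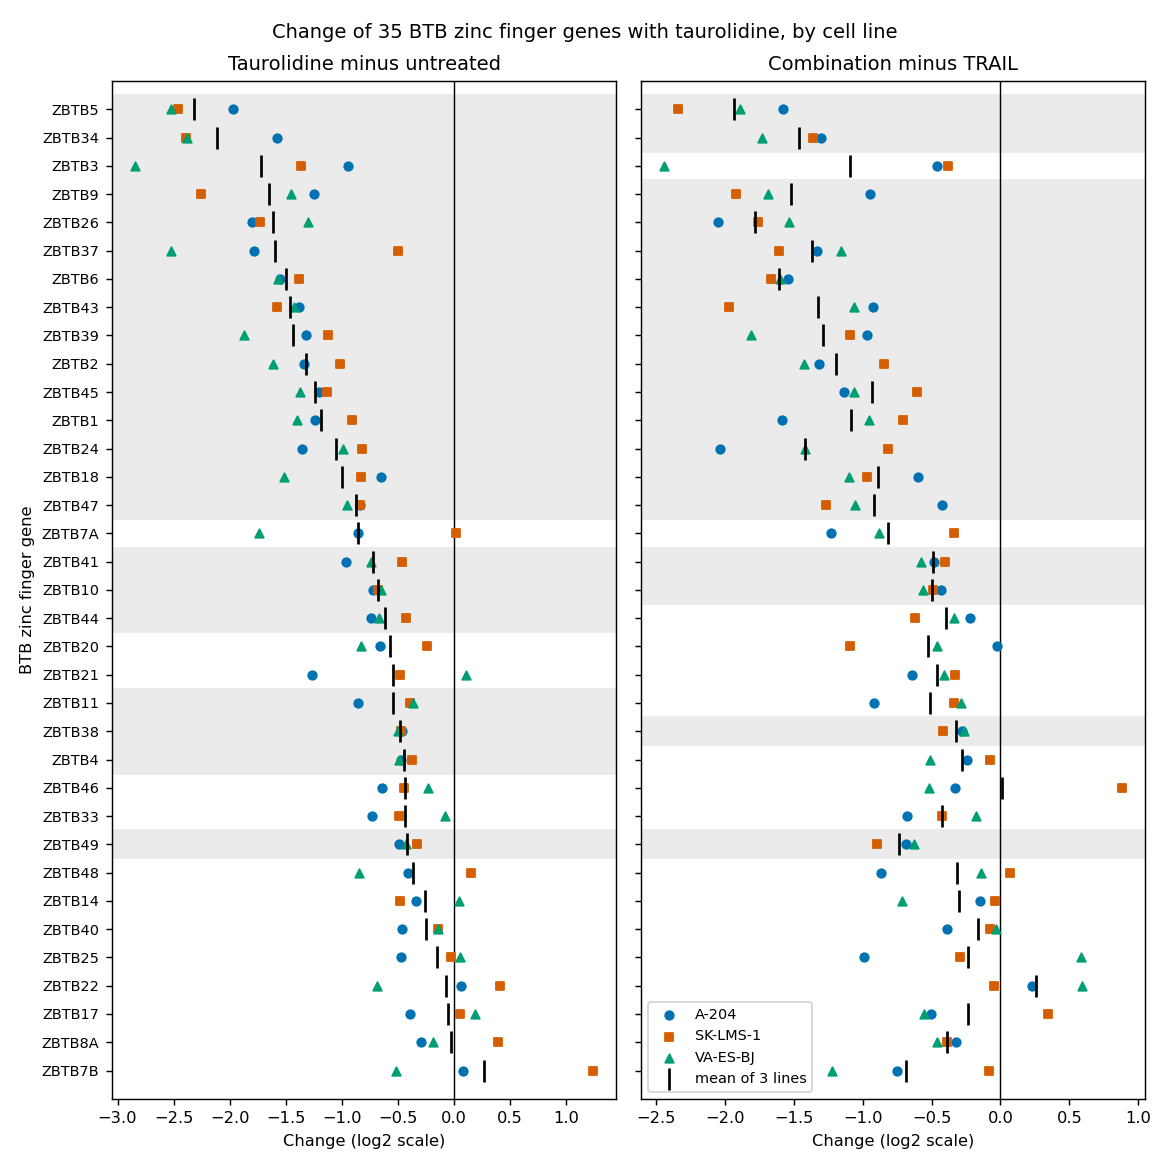
Change of each of the 35 BTB zinc finger genes on the log2 scale (horizontal axes), with taurolidine alone on the left and taurolidine added to TRAIL on the right. Points are the 3 lines, vertical bars their mean, and grey bands mark genes called lower in that comparison; 22 genes are banded on the left and 18 on the right, and nearly all points lie left of 0.

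Among the members tied to the cell cycle, p53 and MYC, 3 of 5 fell (60%), beside 11.5% of all genes. ZBTB5, a repressor of the cell cycle inhibitor gene CDKN1A, had signals of 1709, 1059 and 1474 in untreated A-204, SK-LMS-1 and VA-ES-BJ, and of 1702, 907 and 1311 with TRAIL. With taurolidine the signals were 429, 182 and 247 in the same order, and with both agents they were 561, 170 and 345. Every array with taurolidine was thus below every array without it, and the lines kept their order, A-204 highest and SK-LMS-1 lowest. ZBTB5 fell 4.99-fold with taurolidine alone, a log2 change of -2.32 ± 0.18 (SE, limma adjusted p 0.0005), the largest fall of the tested members. ZBTB2, another repressor of genes of the p53 pathway, was at 2952, 3944 and 3822 untreated and at 3026, 3395 and 3371 with TRAIL. With taurolidine it was at 1165, 1941 and 1245 in A-204, SK-LMS-1 and VA-ES-BJ, and with both agents at 1207, 1885 and 1246. The groups did not overlap, and ZBTB2 fell by 1.32 ± 0.15 (adjusted p 0.0018). ZBTB49, an activator of CDKN1A, fell by 0.41 ± 0.12 (adjusted p 0.0465). ZBTB7A, also called LRF or Pokemon, a repressor of the ARF transcript of CDKN2A, had a change of -0.86 ± 0.32 (adjusted p 0.097), with -1.74 in VA-ES-BJ and 0.02 in SK-LMS-1. ZBTB17, also called MIZ-1, the partner through which MYC represses CDKN2B and CDKN1A, had a change of -0.05 ± 0.19.

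Among the members tied to methylated DNA or to DNA methylation, 3 of 4 fell (75%), beside 11.5% of all genes. ZBTB24, whose loss in humans causes an immunodeficiency with unstable centromeres, fell by 1.05 ± 0.22 (adjusted p 0.0155). ZBTB38 and ZBTB4, which bind methylated CpG sites, fell, with changes of -0.48 ± 0.09 (adjusted p 0.0113) and -0.44 ± 0.12 (adjusted p 0.0378). ZBTB33, or Kaiso, the founding methyl-CpG binder of this kind, had a change of -0.43 ± 0.15 (adjusted p 0.078). Its values for A-204, SK-LMS-1 and VA-ES-BJ were -0.73, -0.49 and -0.08.

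Of the 11 members known from lineage choice and development, 7 were tested and 2 fell (28.6%), beside 11.5% of all genes. ZBTB1, required for lymphoid development, fell by 1.18 ± 0.17 (adjusted p 0.0049), and ZBTB18, or RP58, a repressor of neural development, fell by 1.00 ± 0.17 (adjusted p 0.0084). ZBTB20, known from liver and brain, had a change of -0.57 ± 0.21 (adjusted p 0.095), and ZBTB46, a marker of classical dendritic cells, had one of -0.44 ± 0.25. ZBTB14, a repressor first found at the MYC promoter, had a change of -0.26 ± 0.17, and ZBTB25 one of -0.15 ± 0.26. ZBTB7B, or ThPOK, which fixes the helper T cell fate, had the single positive change of the tested members, 0.27 ± 0.51. It was made of 1.24 for SK-LMS-1, 0.08 for A-204 and -0.52 for VA-ES-BJ. None of these 5 passed the test.

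Of the 3 members known to bind telomere repeats, 1 fell (33.3%), beside 11.5% of all genes. ZBTB10 fell by 0.68 ± 0.08 (adjusted p 0.0023), with line values of -0.72, -0.67 and -0.65 in A-204, SK-LMS-1 and VA-ES-BJ. ZBTB48, or TZAP, which trims long telomeres, had a change of -0.37 ± 0.24, and ZBTB40 one of -0.25 ± 0.12, neither past the test.

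The largest group holds 18 less characterised members, of which 16 were tested and 13 fell (81.25%), beside 11.5% of all genes. Its median change was -1.34. ZBTB34 had signals of 713, 679 and 571 in untreated A-204, SK-LMS-1 and VA-ES-BJ and of 683, 554 and 575 with TRAIL. With taurolidine it was at 231, 120 and 100 in A-204, SK-LMS-1 and VA-ES-BJ, and with both agents at 269, 208 and 165. The groups did not overlap, and ZBTB34 fell, with a log2 change of -2.11 ± 0.18 (adjusted p 0.0006). Its arrays with taurolidine alone in SK-LMS-1 and VA-ES-BJ were under the table median, so the size of this fall is poorly measured. With the table median as the added constant the change was -1.48. ZBTB26 was at 969, 446 and 596 in untreated A-204, SK-LMS-1 and VA-ES-BJ and at 929, 499 and 605 with TRAIL. Its signals were 270, 126 and 235 with taurolidine and 215, 139 and 201 with both agents. No array with taurolidine reached the lowest array without it, and ZBTB26 fell by 1.61 ± 0.15 (adjusted p 0.00091). Its SK-LMS-1 array with taurolidine alone was just under the table median. ZBTB6, its neighbour on chromosome 9, was at 851, 602 and 580 in the 3 untreated lines and at 743, 812 and 475 with TRAIL. With taurolidine it was at 283, 225 and 188 in A-204, SK-LMS-1 and VA-ES-BJ, and with both agents at 247, 248 and 149. ZBTB6 fell 2.82-fold (adjusted p 0.0011), with no overlap and line values between -1.57 and -1.38. ZBTB43, which neighbours ZBTB34 on the same chromosome, was at 579, 519 and 436 in the untreated lines and at 578, 429 and 394 with TRAIL. With taurolidine ZBTB43 was at 215, 166 and 155 in the 3 lines, and with both agents at 298, 100 and 182, and it fell by 1.46 ± 0.24 (adjusted p 0.0070). All 5 members on chromosome 9, which are these pairs and ZBTB5, were called lower, beside 11.5% of all genes tested. On chromosome 1, which held the most members, 3 of 8 were called lower. Chromosome was not one of the listed groupings, and the share among all genes of chromosome 9 was not computed.

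ZBTB9 had signals of 1121, 2646 and 2610 in untreated A-204, SK-LMS-1 and VA-ES-BJ and of 1321, 2532 and 2746 with TRAIL. With taurolidine these were 466, 545 and 947, and with both agents 678, 661 and 845. The arrays did not overlap although the lines differed, and ZBTB9 fell by 1.65 ± 0.24 (adjusted p 0.0052), most in SK-LMS-1 at -2.26. ZBTB39 was at 500, 348 and 615 untreated, 530, 353 and 640 with TRAIL, 193, 154 and 160 with taurolidine and 265, 159 and 174 with both agents, in the order A-204, SK-LMS-1 and VA-ES-BJ. It fell by 1.44 ± 0.20 (adjusted p 0.0037), and again no array with taurolidine reached those without. ZBTB37, the dimmest of the large falls, was at 269, 362 and 387 in untreated A-204, SK-LMS-1 and VA-ES-BJ and at 284, 553 and 295 with TRAIL. With taurolidine it was at 70.1, 253 and 57.7 in the 3 lines, and with both agents at 106, 173 and 126. Its fall of 1.60 ± 0.32 (adjusted p 0.0140) was uneven, since the untreated-to-taurolidine change in SK-LMS-1 was only -0.49. The size of the ZBTB37 fall is poorly measured, since its arrays with taurolidine in A-204 and VA-ES-BJ were under the table median. ZBTB3 was at 436, 743 and 391 in untreated A-204, SK-LMS-1 and VA-ES-BJ, at 525, 398 and 355 with TRAIL and at 221, 282 and 44.3 with taurolidine. With both agents it was at 379, 302 and 55.6, so that only VA-ES-BJ lay far down and the groups overlapped. ZBTB3 fell by 1.72 ± 0.49 (adjusted p 0.0439), with the largest error of the called members and line values of -0.94, -1.36 and -2.84. Its arrays with taurolidine in VA-ES-BJ were likewise under the table median.

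The other called members of this group were ZBTB45 at -1.24 ± 0.14, ZBTB47 at -0.87 ± 0.20, ZBTB41 at -0.72 ± 0.11, ZBTB44 at -0.61 ± 0.11 and ZBTB11 at -0.54 ± 0.15, with adjusted p between 0.0018 and 0.0456. ZBTB45 and ZBTB44 did not overlap between the arrays with and without taurolidine. ZBTB21 had a change of -0.54 ± 0.24 (adjusted p 0.153), with -1.27 for A-204 and 0.11 for VA-ES-BJ. ZBTB22 and ZBTB8A had changes of -0.07 ± 0.22 and -0.03 ± 0.22 and were, with ZBTB17, the members nearest to 0.

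**Figure D2:**
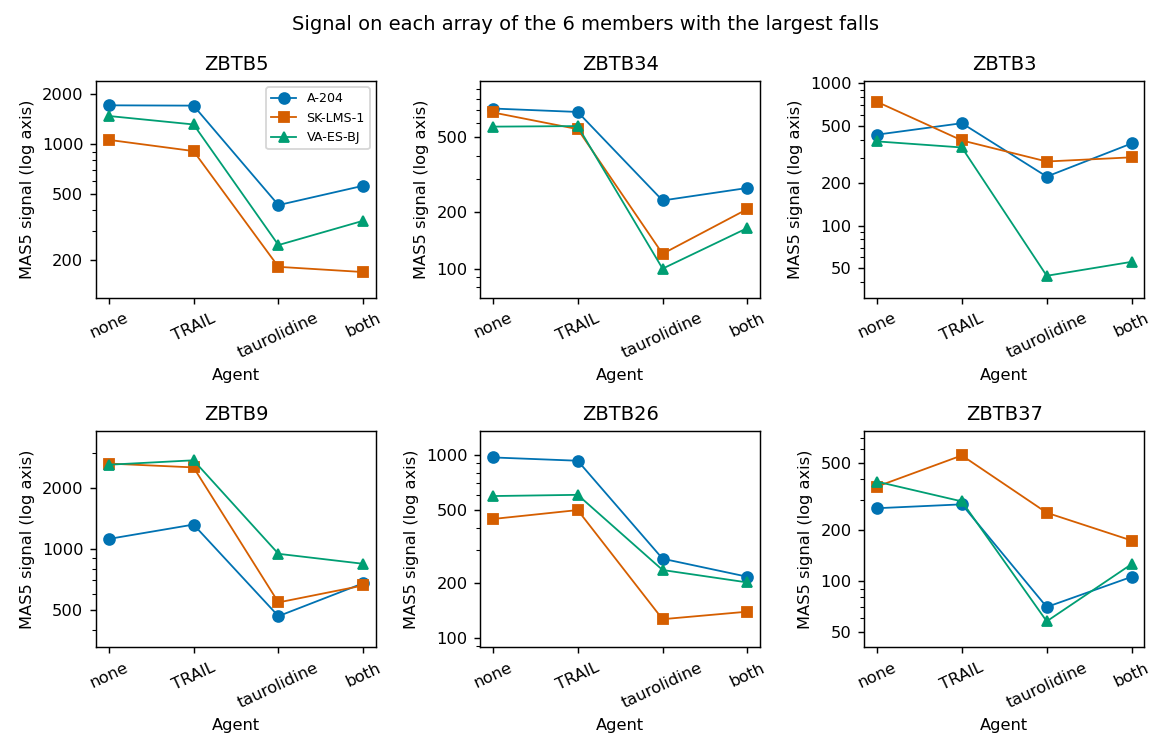
MAS5 signal on a log axis (vertical) on each of the 12 arrays by agent (horizontal), for the 6 members with the largest falls. Points are single arrays joined within a line; in ZBTB5 the 6 arrays with taurolidine lie between 170 and 561 and the 6 without between 907 and 1709, and in ZBTB3 the deep fall is that of VA-ES-BJ.

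The promoters of the 3 chromosome 9 members with the largest falls, and of ZBTB22, whose signal had one of the smallest changes, are shown so that their letters can be set beside the signals. Each is the 250 bases before the first listed start of the gene, from RefSeq on GRCh38.p14 and read on the strand of the gene. They lie at chr9:37465451-37465700 on the minus strand (ZBTB5), chr9:126860389-126860638 on the plus strand (ZBTB34), chr9:122931513-122931762 on the minus strand (ZBTB26) and chr6:33317943-33318192 on the minus strand (ZBTB22). Capitals mark the GC box GGGCGG, read by factors such as SP1, on either strand. They also mark the CCAAT box, the word of its name, read by NF-Y. The ETS core, the word bound by ETS factors, is marked in the same way and was sought as CCGGAAG. A word on the other strand appears as its reverse complement.
ZBTB5: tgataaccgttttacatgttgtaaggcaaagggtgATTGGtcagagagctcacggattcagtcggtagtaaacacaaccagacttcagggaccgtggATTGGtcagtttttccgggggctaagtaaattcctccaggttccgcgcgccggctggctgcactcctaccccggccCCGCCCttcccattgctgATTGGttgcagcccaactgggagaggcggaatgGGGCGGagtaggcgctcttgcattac
ZBTB34: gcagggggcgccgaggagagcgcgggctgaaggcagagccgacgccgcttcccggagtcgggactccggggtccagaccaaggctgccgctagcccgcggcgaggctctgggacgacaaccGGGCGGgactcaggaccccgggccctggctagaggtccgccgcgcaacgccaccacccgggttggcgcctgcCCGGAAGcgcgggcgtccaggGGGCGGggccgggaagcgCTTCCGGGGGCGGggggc
ZBTB26: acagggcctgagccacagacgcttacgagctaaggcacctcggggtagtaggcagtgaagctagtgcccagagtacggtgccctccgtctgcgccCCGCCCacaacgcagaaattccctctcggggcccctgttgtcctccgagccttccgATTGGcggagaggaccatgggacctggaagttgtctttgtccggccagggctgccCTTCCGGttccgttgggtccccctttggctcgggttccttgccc
ZBTB22: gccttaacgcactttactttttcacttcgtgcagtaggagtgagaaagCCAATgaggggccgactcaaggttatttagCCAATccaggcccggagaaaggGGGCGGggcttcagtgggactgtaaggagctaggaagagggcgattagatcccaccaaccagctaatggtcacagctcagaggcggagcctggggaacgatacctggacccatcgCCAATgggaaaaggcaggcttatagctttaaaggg

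The ZBTB5 window holds 2 GC boxes and 3 CCAAT boxes, and the ZBTB34 window 3 GC boxes and 2 ETS cores, of which the last core and the last GC box abut. The ZBTB26 window has 1 of each word, and the ZBTB22 window, with little change in signal, has 1 GC box and 3 CCAAT boxes. Of the 35 members, 30 matched a promoter by symbol. A GC box stood in 21 of the 30 windows (70%), against 64.6% of the 11416 tested genes with a promoter and 42.3% of all 27305 promoters of that length. A CCAAT box stood in 12 windows (40%), against 34.7% of tested genes and 33.0% of all promoters. The ETS core stood in 8 windows (26.7%), against 14.8% of tested genes and 8.82% of all promoters. The E-box CACGTG, the word read by MYC, stood in 6 windows (20%), against 8.60% and 6.49%. TATAAA stood in 0 of the 30 windows, against 6.03% of tested genes and 11.1% of all promoters. The median number of CpG in a window was 20.5 for members and 20 for tested genes. All words were sought on both strands, and these counts are descriptions of letters, not of bound factors.

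On a TRAIL background, the same agent was measured on the 6 arrays that the first comparison does not use. Adding taurolidine to TRAIL lowered 18 of 35 members and raised 0, against 9.72% of all genes called lower and 6.5% called higher. The median change was -0.68, against 0.06 for all genes tested, and 33 of 35 members had values below 0. All 18 were among the 22 called with taurolidine alone. ZBTB5 had a change of -1.94 ± 0.18 (adjusted p 0.0010), ZBTB26 of -1.78 ± 0.15 (adjusted p 0.00079), ZBTB6 of -1.60 ± 0.15 (adjusted p 0.0011) and ZBTB9 of -1.52 ± 0.24 (adjusted p 0.0074). ZBTB24 had changes of -1.42 ± 0.22 on TRAIL and -1.05 without it, and ZBTB49 had -0.74 ± 0.12 and -0.41. The members that did not pass here were ZBTB3 at -1.10 ± 0.49 (adjusted p 0.157), ZBTB11 at -0.51 ± 0.15 (adjusted p 0.0585), ZBTB44 at -0.39 ± 0.11 (adjusted p 0.0503) and ZBTB4 at -0.28 ± 0.12 (adjusted p 0.147). The count was 1 without the line term (0.956% of all genes), 0 in a fit of the compared arrays alone (0%), and 31 when the arrays were scaled to the poly-A controls, where 44.0% of all genes were called lower. Without A-204, SK-LMS-1 or VA-ES-BJ it was 6, 9 or 4, against 1.55%, 2.89% or 1.95% of all genes.

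Across the 35 members the changes in these comparisons, which share no arrays but come from the same 3 lines, had a Pearson r of 0.888, and across all 14221 genes an r of 0.725. Genes are not independent replicates, so the values are descriptions. The sign turned in ZBTB7B, from 0.27 to -0.68, in ZBTB22, from -0.07 to 0.26, and in ZBTB46, from -0.44 to 0.01, none of which passed in either comparison.

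**Figure D3:**
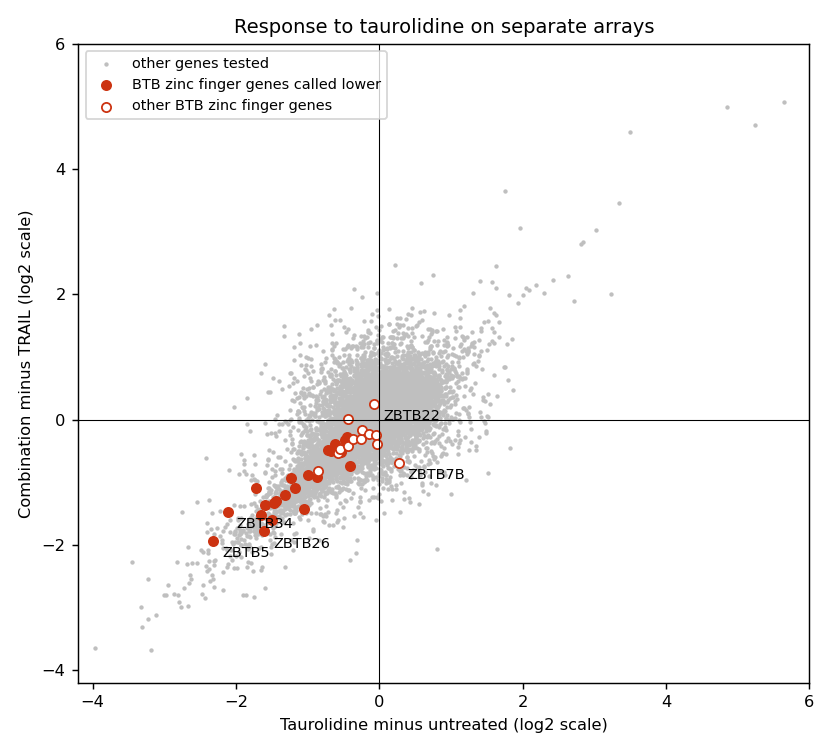
Change with taurolidine alone (horizontal, log2 scale) against change when taurolidine was added to TRAIL (vertical, log2 scale) for all 14221 genes in grey and the 35 BTB zinc finger genes in red, filled where called lower with taurolidine alone. The filled points run down the lower left, with ZBTB5 at -2.32 and -1.94, while ZBTB22 and ZBTB7B lie near or right of 0.

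Cells given both agents were also compared with untreated cells, a comparison that shares the untreated arrays with the first. There 19 of 35 members fell and 0 rose, against 11.3% of all genes called lower and 7.58% called higher. The changes were -2.07 ± 0.18 for ZBTB5, -1.74 ± 0.15 for ZBTB26 and -1.62 ± 0.15 for ZBTB6, all with limma adjusted p at or under 0.00095. The median change was -0.59. The 19 were the 18 members called in both other comparisons and ZBTB44, at -0.39 ± 0.11 (adjusted p 0.0463). The count was 3 without the line term (1.07% of all genes), 0 in a fit of the compared arrays alone (0%), and 29 with scaling to the poly-A controls, where 34.4% of all genes were called lower. Without A-204, SK-LMS-1 or VA-ES-BJ it was 5, 10 or 6, against 1.48%, 3.26% or 2.43% of all genes.

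TRAIL alone called 0 members by limma, with 0 members at an unadjusted p under 0.05, and 0% of all genes were called while 563 genes were under that unadjusted p. The median change of the 35 members was -0.03, against -0.02 for all genes. The smallest unadjusted limma p values belonged to ZBTB45 and ZBTB8A, which did not pass. ZBTB45 was at 835, 841 and 754 in untreated A-204, SK-LMS-1 and VA-ES-BJ and at 766, 543 and 666 with TRAIL, a change of -0.31 ± 0.14. ZBTB8A was at 4304, 1120 and 2708 untreated and at 4238, 2301 and 2759 with TRAIL, so that its change of 0.35 ± 0.22 came from SK-LMS-1.

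TRAIL added to taurolidine also called 0 members by limma, and 0% of all genes, with 1 member and 374 genes at an unadjusted p under 0.05. The member was ZBTB34, whose signal was higher with both agents than with taurolidine alone in each line, at 269 against 231, 208 against 120 and 165 against 100, a change of 0.53 ± 0.18 that did not pass. ZBTB44, next in order of p, was at 1932, 1799 and 1640 with both agents and 1508, 1870 and 1278 with taurolidine, a change of 0.22 ± 0.11. Departure from additivity, the combination set against the sum of both single changes, was called for 0 members by limma and 0% of all genes, with 1 member and 537 genes at an unadjusted p under 0.05. ZBTB34 again had the smallest p, with a departure of 0.65 ± 0.25, and ZBTB49 followed with -0.32 ± 0.17. ZBTB49 was at 214, 373 and 192 untreated, 265, 404 and 196 with TRAIL, 150, 294 and 140 with taurolidine and 161, 211 and 123 with both agents. The smallest limma adjusted p of any member was 0.998 in these tests, and no departure was detected.

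The lines differed in how much of these genes they held. By an F test over the lines in the same limma fit, 31 of 35 members differed, against 73.9% of all genes, and the brightest line was SK-LMS-1 for 14, A-204 for 9 and VA-ES-BJ for 8. ZBTB20 spanned the widest range, between 159 and 257 on the 4 arrays of A-204, between 889 and 1645 for VA-ES-BJ and between 1672 and 3585 for SK-LMS-1, a 10.5-fold difference of means between the outer lines (limma adjusted p 2.4e-06). ZBTB4 was between 1766 and 2457 for A-204, between 2198 and 3318 for VA-ES-BJ and between 7441 and 10041 for SK-LMS-1, where it stood 3.89-fold above A-204 (adjusted p 2.1e-06). ZBTB38 followed the same order, between 4808 and 6640, between 5585 and 7895 and between 12270 and 17850 (adjusted p 3.1e-06). In ZBTB4 and ZBTB38 the 4 arrays of SK-LMS-1 stood apart, while the arrays of A-204 and VA-ES-BJ overlapped.

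ZBTB10 and ZBTB18 were brightest in VA-ES-BJ and ZBTB1 was brightest in A-204. ZBTB10 was between 1240 and 1950 in VA-ES-BJ, above its 656 to 1089 for A-204 and 718 to 1151 for SK-LMS-1, which overlapped. ZBTB18 was between 4545 and 12991 for VA-ES-BJ, 2890 and 4642 for A-204 and 1983 and 3891 for SK-LMS-1, with a 2.82-fold difference between the outer lines. ZBTB1 was between 1826 and 5506 for A-204, 2067 and 3893 for SK-LMS-1 and 704 and 1870 for VA-ES-BJ, with a 2.87-fold difference. In these last members the ranges of neighbouring lines overlapped, where each range holds arrays with and without taurolidine. The count of 31 (88.6%) was 22, 19 or 18 without A-204, SK-LMS-1 or VA-ES-BJ. These are 62.9%, 54.3% and 51.4% of members, against 55.6%, 52.1% and 53.3% of all genes, so with 1 line left out the members' share lay near or under that of all genes.

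**Figure D4:**
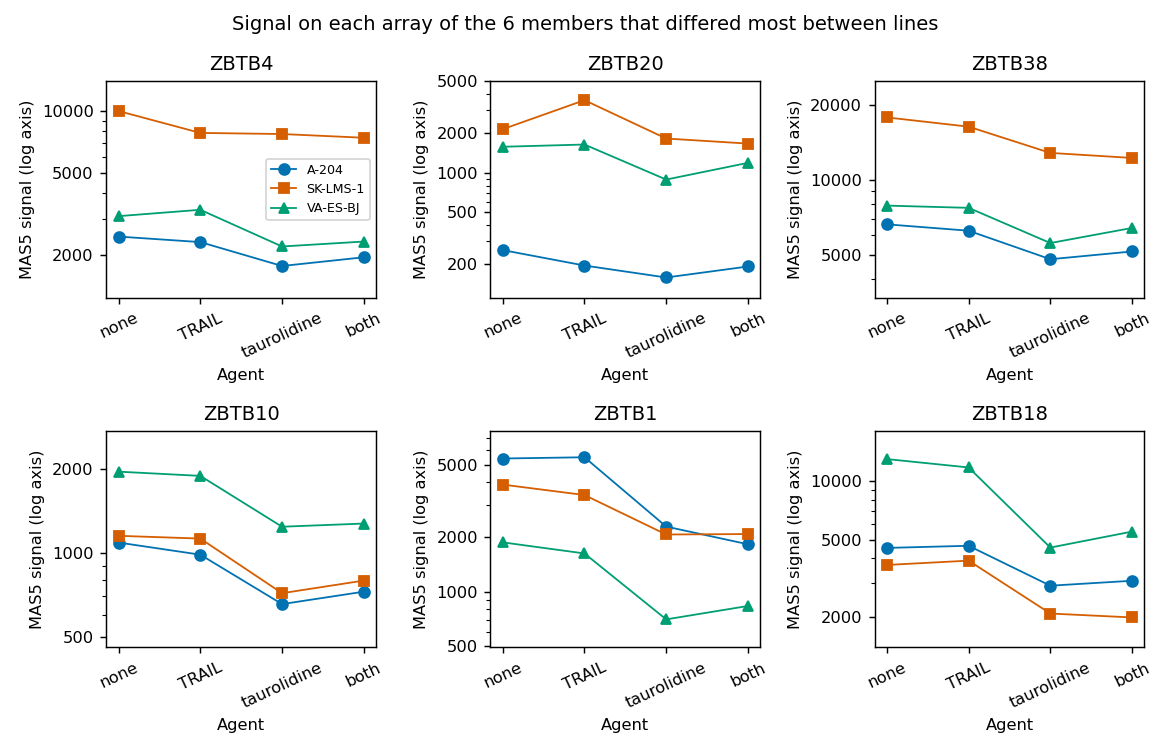
MAS5 signal on a log axis (vertical) on each of the 12 arrays by agent (horizontal), for the 6 members with the smallest p for level between lines. Points are single arrays joined within a line; ZBTB20 in A-204 stays between 159 and 257 under all agents, and SK-LMS-1 stands above the other lines in ZBTB4 and ZBTB38.

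Whether the lines responded differently to taurolidine was tested with an interaction of line and taurolidine, in which the arrays with and without TRAIL serve as the pair for each line and state. No member passed by limma (0 of 35), against 3.5% of all genes, and 10 members and 2942 genes had an unadjusted p under 0.05. ZBTB11, a regulator of genes for mitochondrial proteins, came nearest with an adjusted p of 0.066. It was at 2550, 4454 and 2114 in untreated A-204, SK-LMS-1 and VA-ES-BJ and at 2451, 4550 and 2137 with TRAIL. With taurolidine it was at 1401, 3388 and 1642, and with both agents at 1294, 3596 and 1751. Its changes without TRAIL were -0.86, -0.39 and -0.36 in the same order of lines. ZBTB3 came next with an adjusted p of 0.082, and its low arrays were those of VA-ES-BJ given above.

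The calls of several members differed between their probe sets. Of 44 further tested probe sets of 22 members, 37 had values below 0 with taurolidine alone, 11 were called lower and 0 were called higher, in a limma fit over all 27105 tested probe sets. Among all those probe sets 55.5% had values below 0, 10.9% were called lower and 4.44% were called higher. In that fit 19 of the representing probe sets were called lower, and the calls of ZBTB4, ZBTB11 and ZBTB49 were lost, at adjusted p of 0.0507, 0.0571 and 0.0620. The following were singled out after their values were seen. ZBTB38 was called lower on 2 further probe sets, at -1.01 and -1.38, against -0.48 on its brightest. ZBTB7A and ZBTB21, which did not pass, fell on 1 further probe set each, with changes of -1.12 ± 0.26 (adjusted p 0.0269) and -0.87 ± 0.17 (adjusted p 0.0150). ZBTB47, which was called, had values of 0.05 and -0.24 on its further probe sets, neither past the test. ZBTB43, also called, had values of -0.53, -0.26, -1.02 and -1.21 on its further probe sets. None of these passed with taurolidine alone, with adjusted p between 0.174 and 0.662. ZBTB11 had 0.84 ± 0.39 on a further, dimmer probe set (adjusted p 0.185), and with the mean over its probe sets its change was 0.15.

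The 6 members that were not tested were dim. ZBTB16, or PLZF, the regulator of innate-like lymphocytes, and ZBTB42 lay just outside the filter with 2 arrays over the table median each, and their highest signals were 150 and 172. ZBTB12 had 1 such array, with a highest signal of 143, and ZBTB32, ZBTB7C and ZBTB8B had 0. Among the tested members ZBTB37 had the fewest such arrays, 8.

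The BTB zinc finger genes were also set beside related families, without a test of the difference. Among 409 tested genes with ZNF symbols, most of which encode zinc finger proteins without a BTB domain, 43.0% were called lower and 0.733% higher with taurolidine alone, with a median change of -0.68, the same as for the BTB zinc finger genes. Among 49 tested KLHL, KCTD and BTBD genes, which carry BTB domains without zinc fingers, 28.6% were called lower and 0% higher, with a median of -0.21.

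**Figure D5:**
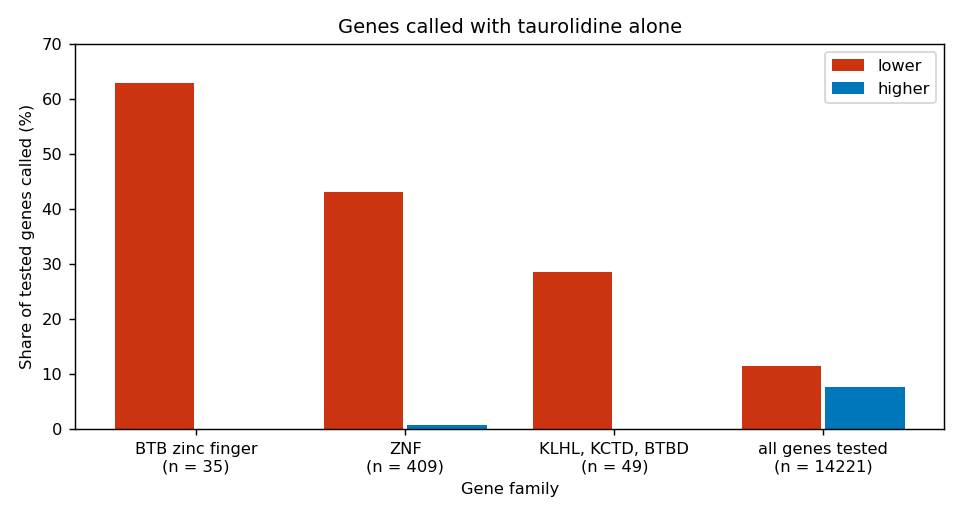
Share of tested genes called lower (red) and higher (blue) with taurolidine alone, in percent on an axis from 0, for 4 sets of genes. The BTB zinc finger genes are at 62.9% lower, the ZNF genes at 43.0%, the KLHL, KCTD and BTBD genes at 28.6% and all genes tested at 11.5%.

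Of 8 listed BTB zinc finger genes that carry other names, 7 were tested and 1 fell (14.3%) with taurolidine alone, beside 11.5% of all genes. HIC2, a relative of the tumour suppressor HIC1, was at 879, 490 and 690 in untreated A-204, SK-LMS-1 and VA-ES-BJ and at 792, 535 and 712 with TRAIL. With taurolidine it was at 86.0, 57.7 and 44.3, and with both agents at 134, 76.5 and 21.4. HIC2 fell (adjusted p 0.0019) and the groups did not overlap. All 6 arrays with taurolidine were under the table median of 136.5, where the size of a fall is poorly measured, so no fold is given. PATZ1, at -0.62 ± 0.21, did not pass, nor did BCL6, the germinal centre repressor, at 0.61 ± 0.32, or MYNN, at -0.46 ± 0.18.

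Of 17 listed partners and corepressors, 14 were tested, 3 fell (21.4%) and 2 rose (14.3%) with taurolidine alone, beside 11.5% and 7.71% of all genes. BCOR, the corepressor bound by the BTB domain of BCL6, fell by 1.62 ± 0.31 (adjusted p 0.0123). The acetyltransferase EP300 fell by 0.92 ± 0.12 (adjusted p 0.0029). EP300 did not pass when taurolidine was added to TRAIL, at -0.32 ± 0.12 (adjusted p 0.09995). With TRAIL alone EP300 had a change of -0.46 ± 0.12, which did not pass either. HDAC1, a histone deacetylase of several corepressor complexes, and GPS2, a subunit of the NCoR complex, each rose by 0.44, with adjusted p of 0.0178 and 0.0286. Of 15 listed genes known to be bound or repressed by members, 12 were tested, 1 fell and 1 rose (8.33% each), near the 11.5% and 7.71% of all genes. MYC fell by 1.07 ± 0.24 (adjusted p 0.0212), and CDKN2B, a cell cycle inhibitor, rose by 1.15 ± 0.30 (adjusted p 0.0343). The CDKN2B signals of VA-ES-BJ lay between 2.48 and 24.4, far under the table median, where a change is poorly measured. CDKN2B did not pass when taurolidine was added to TRAIL, at 0.75 ± 0.30 (adjusted p 0.124). CDKN1C at 1.22 ± 0.64 and CDKN2A at 0.66 ± 0.48 did not pass, and CDKN1A, the gene repressed by ZBTB5 and ZBTB2, had a value of 0.38 ± 0.24 (adjusted p 0.302).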

How the data were processed

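Expression was measured on 12 Affymetrix arrays of total RNA from 3 cell lines under 4 treatments. Values were deposited by the authors as linear signal intensity made with MAS5, per the submitters' processing notes; no source used here gives its version or the value it scaled to. Probe sets took their gene from the platform annotation (41097 of 54675 with 1 gene, 1801 with several and 11777 with none), and 41043 were updated through Entrez identifiers. Signals plus 11.8 were log2-transformed, and limma 3.58.1 (R 4.3.3) fitted terms for treatment and cell line over all 12 arrays (6 residual degrees of freedom, 1.98 prior). Genes needed a signal over 136.5 on at least 3 arrays, and p-values were adjusted by Benjamini-Hochberg over 14221 genes. The scripts were tested on simulated data. Replicate numbers stand for cell lines, so they pair the arrays. Deviations from the group means correlated between 0.857 and 0.908 within a line and between -0.534 and -0.389 between lines. Each group mean is that of the 3 lines, so subtracting it pushes the values between lines below 0 by itself. The block of the main fit is this line term. Values on every array, or their range within a line, were printed for the 10 largest falls, for the 2 smallest p of tests that no member passed and for the 6 smallest p between lines; of other lists, up to 4 genes with the largest changes. The members, lists and rule were chosen with earlier results of these data known. Alternatives varied the constant, filter, scaling, probe sets, line term, arrays fitted and lines left out.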

Additional observations from a re-analysis of the deposited data

How the results depend on the processing

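The number of BTB zinc finger genes called lower depended most on the line term and on the number of arrays. With no replicate block the count went from 22 to 2 with taurolidine alone, from 18 to 1 for taurolidine added to TRAIL, and from 19 to 3 for the combination. With only the arrays compared it was 0 in all 3. Without 1 line it lay between 5 and 9, between 4 and 9, and between 5 and 10. Between lines, 31 members differed in level, and 18 to 22 without 1 line. Scaling to the poly-A spikes gave 33 members with taurolidine alone, 31 for taurolidine added to TRAIL and 29 for the combination, while 56.0%, 44.0% and 34.4% of all genes were called lower. It moved the median change with taurolidine alone from -0.68 to -1.31 and that of all genes to -0.62. Relative to all genes, the median lay between -0.75 and -0.60 under the 13 alternatives, and no member was called higher under any of them. ZBTB11 turned to 0.15 with the mean of its probe sets. Of 286 alternative values for the 22 called genes, 179 kept the call, 106 lost it with the same sign and 1 reversed. The cause was not tested, beyond the fewer arrays in some fits. Signals near or under the table median carry the least information, and 6 members were too dim to test.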

Other observations

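Transcripts named after the opposite strand of these loci did not move as one with them. ZBTB8OS, named for its place opposite ZBTB8A, rose by 0.48 ± 0.11 with taurolidine alone (limma adjusted p 0.0201), and its 6 arrays with taurolidine, between 4398 and 6361, lay above the 6 without, between 2994 and 3948. ZBTB8A itself had a change of -0.03. ZBTB11-AS1 fell by 0.47 ± 0.14 with taurolidine alone (adjusted p 0.0463), but had a change of -0.21 when taurolidine was added to TRAIL (adjusted p 0.319) and of -0.06 with the combination (adjusted p 0.789). ZBTB20-AS1 had changes of -0.81 ± 0.50 without and 0.81 ± 0.50 on TRAIL, neither past the test.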
